A study of Homo sapiens with 6 samples.

Results

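PHACTR3, SLC26A9, ELF5, PTPRR, NUDT7, FILIP1L, SRPX2 and AKAP12 are 8 of the 19775 genes that had a probe set of their own on the arrays. They were chosen for signals that lay far higher in both bortezomib-resistant clones of HT-29 than in the wild type line. HT-29 is a line grown from a human colon adenocarcinoma, and bortezomib is a drug that blocks the proteasome, the complex that degrades ubiquitin-tagged proteins. The 3 variants compared were BR200, BR100 and wild type, each with 2 Affymetrix arrays, 1 labelled from 100 ng of RNA with the 3' IVT Express kit and 1 from 3 ug with the One-Cycle kit. The labels describe HT-29 cells exposed to bortezomib raised in steps from 20 to 300 nM during 7 months, and then cloned by limiting dilution while 100 or 300 nM of the drug was kept in the medium for 4 further months. The same wording is attached to all 6 samples, wild type too, without saying which dose BR200 was cloned in or whether cells were still in the drug at harvest. Each resistant variant is 1 clone, so a difference between the clones cannot be told apart from a difference between any 2 clones of the line. The labels do not tell whether a variant's 2 arrays go back to separate cultures, and p-values here measure only the spread between these arrays.

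The 8 proteins work in different parts of the cell. SRPX2 is a secreted protein with sushi repeats that binds the urokinase receptor. SLC26A9 is an anion transporter and chloride channel of gastric and airway epithelium that interacts with CFTR. PTPRR is a receptor-type tyrosine phosphatase with a docking motif for MAP kinases, through which it dephosphorylates ERK. AKAP12, also called gravin, is a scaffold that holds protein kinase A and protein kinase C near the membrane. PHACTR3, also called scapinin, binds actin and protein phosphatase 1. FILIP1L is a relative of the filamin A interacting protein FILIP1. NUDT7 is a peroxisomal Nudix hydrolase that cleaves coenzyme A and its derivatives, characterised mainly in the mouse. ELF5 is an ETS transcription factor of epithelia, known for its part in milk-producing mammary cells and in trophoblast.

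All levels are the deposited log2 values, and a gene is called near background where both wild type arrays were under 4. The lowest value on every array was 2.23, shared by 34.9% to 35.3% of its probe sets. The 8 genes had 18 probe sets, none of which named a second gene, and 14 of them reached 4 on at least 2 of the 6 arrays. The other 4, 1 each for FILIP1L, NUDT7, SRPX2 and AKAP12, never exceeded 2.26 on any array. Of the 14, 9 were near background in wild type. Of the 8 genes, taken at the probe set with the highest mean, 6 were near background in wild type. ELF5 missed that mark on 1 array, and AKAP12 lay well above it on both, so AKAP12 was raised from a measured level and not from the floor. On all 14 probe sets the 4 resistant arrays lay above both wild type arrays, by a gap of 1.16 to 5.42 between the lowest resistant and the highest wild type array. The choice of the genes fixed that order; it also held for 28.1% of all probe sets and 32.5% of all genes that passed the filter.

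The arrays differed by variant in other respects too. Of 8 colon epithelium markers, 6 were at 4 or more on every array, while CDH17 and CDX2 were at the lowest value on all 6. The summed level of that list was 76.4 to 77.8 on the resistant arrays and 85.2 to 85.9 on the wild type arrays, with LGALS4 at 6.90 to 7.94 on the resistant arrays against 13.0 and 13.5 on the wild type arrays. Among 5 fibroblast markers, 1 (COL1A1) reached 4, and the summed level was 14.5 on all resistant arrays and 14.8 on both wild type arrays. Blood cell markers PTPRC and CD3E were at the lowest value on every array, CD14 and LYZ were not, and that list summed to 24.7 to 25.8 on the resistant arrays and 24.4 on the wild type arrays. None of 3 endothelial markers reached 4, with sums of 6.95 to 7.20 on the resistant arrays and 7.01 on the wild type arrays. The 3' minus 5' gap of the ACTB control probe sets, a sign of RNA integrity and labelling, averaged 2.47 on the resistant arrays and 3.61 on the wild type arrays. It also differed by kit, at 3.24 in BR200, 3.03 in BR100 and 4.22 in wild type with Express. With One-Cycle it was 1.76, 1.86 and 2.99 in the same variants. The GAPDH gap averaged 0.19 on the resistant arrays and 0.44 on the wild type arrays. The part of these differences in the levels below was not tested.

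SRPX2, the secreted ligand, was near background in wild type and well above it in both clones. Probe set 205499_at gave 8.09 (Express) and 8.32 (One-Cycle) in BR200, 7.30 and 7.51 in BR100, and 2.55 with both kits in wild type. BR200 was above BR100 with either kit, and the 2 wild type arrays held the identical value 2.5457. Whether the processing set that value was not tested, so it may not be a measured level. The SDs that follow therefore hold the spread of the resistant arrays alone. The difference from wild type averaged 5.66 ± 0.16 in BR200 and 4.86 ± 0.15 in BR100 on the log2 scale (SD over the 2 kits, n = 2). Measured against the near-background mark of 4 instead, the signal was at least 18.5-fold higher in BR200 and at least 10.6-fold higher in BR100. In RNA from a whole culture, more cells with the transcript and more transcript per cell cannot be told apart, here and for the other genes. The RefSeq promoter window of SRPX2, 250 bases before to 50 after the start of the gene (GRCh38.p14, chrX:100643949-100644248, plus strand), is shown because it was the 1 window among the members to hold the AP-1 letters TGAGTCA, given in capitals.
SRPX2: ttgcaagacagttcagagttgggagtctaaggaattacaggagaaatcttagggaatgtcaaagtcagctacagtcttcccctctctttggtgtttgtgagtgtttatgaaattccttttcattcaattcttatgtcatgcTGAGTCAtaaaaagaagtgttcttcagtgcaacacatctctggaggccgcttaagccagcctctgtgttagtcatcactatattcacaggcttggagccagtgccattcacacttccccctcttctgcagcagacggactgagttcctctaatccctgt

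SLC26A9 had the largest smaller rise of all 10370 genes that passed the filter, counting for each gene the smaller of its 2 differences from wild type. On probe set 242271_at it read 9.40 and 9.47 in BR200, 8.89 and 8.90 in BR100, and 3.08 and 3.47 in wild type (Express, then One-Cycle, as in every triplet below). The 2 kits gave nearly the same value in each clone, and the lowest resistant array lay 5.42 above the highest wild type array. BR200 exceeded wild type by 6.16 ± 0.23 and BR100 by 5.62 ± 0.28 (SD over the 2 kits, n = 2), or by at least 43.3-fold and 29.8-fold against the mark of 4. Its promoter window (GRCh38.p14, chr1:205943407-205943706, minus strand) is shown for the TATA box letters TATAAA, which matched on both strands within the 8 capitals.
SLC26A9: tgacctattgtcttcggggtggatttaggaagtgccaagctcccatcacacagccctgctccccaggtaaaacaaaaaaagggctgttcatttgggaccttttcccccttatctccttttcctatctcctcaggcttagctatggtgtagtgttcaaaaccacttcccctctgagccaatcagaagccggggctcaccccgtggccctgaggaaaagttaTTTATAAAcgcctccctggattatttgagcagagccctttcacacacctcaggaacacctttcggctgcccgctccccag

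PTPRR, the ERK phosphatase, was measured by 2 probe sets that gave the same picture. Probe set 206084_at read 7.22 and 6.79 in BR200, 7.92 and 7.42 in BR100, and 2.41 with both kits in wild type. Probe set 210675_s_at read 6.69 and 6.64 in BR200, 7.34 and 7.36 in BR100, and 2.25 and 2.23 in wild type. With either kit BR100 was the higher clone on both probe sets, and wild type sat at or just above the floor. On 206084_at both wild type arrays held the identical value 2.4082, and whether the processing set it was not tested. BR200 minus wild type averaged 4.59 ± 0.30 and 4.43 ± 0.02 on the 2 probe sets, and BR100 minus wild type 5.26 ± 0.36 and 5.11 ± 0.02 (SD over the 2 kits, n = 2). Against the mark of 4, the first of them was at least 8.02-fold higher in BR200 and at least 12.7-fold higher in BR100.

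AKAP12, the kinase scaffold, had 4 measured probe sets. The brightest, 210517_s_at, read 12.34 and 12.57 in BR200, 11.27 and 11.32 in BR100, and 7.11 and 6.55 in wild type. On 227530_at the values were 10.74 and 10.50 in BR200, 9.19 and 9.01 in BR100, and 5.91 and 5.72 in wild type. The same order, BR200 over BR100 over wild type, held on each array pair. Probe set 227529_s_at read 9.40 and 9.66 in BR200, 7.76 and 8.06 in BR100, and 4.61 and 4.19 in wild type. The dimmest, 231067_s_at, read 7.86 and 8.85 in BR200, 6.30 and 7.19 in BR100, and 3.35 and 4.66 in wild type. No 2 variants overlapped on any of the 4. The size of the difference varied between the probe sets: BR200 minus wild type was 5.62, 4.81, 5.13 and 4.35 in the order given, and BR100 minus wild type was 4.47, 3.28, 3.51 and 2.74. The distance between the clones was smallest on the brightest probe set.

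PHACTR3, the actin and phosphatase 1 binding protein, was near background in wild type. Probe set 227949_at read 7.63 and 7.46 in BR200, 8.34 and 8.18 in BR100, and 2.27 and 2.23 in wild type. BR100 was above BR200 with both kits, and wild type was within 0.05 of the lowest array value. The difference from wild type was 5.29 ± 0.09 in BR200 and 6.01 ± 0.09 in BR100 (SD over the 2 kits, n = 2), or at least 11.7-fold and 19.1-fold against the mark of 4.

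FILIP1L, the relative of FILIP1, was near background in wild type. Probe set 204135_at read 8.39 and 8.77 in BR200, 8.52 and 8.80 in BR100, and 3.69 and 3.82 in wild type. Probe set 1554966_a_at read 7.69 and 8.55 in BR200, 8.13 and 9.06 in BR100, and 3.10 and 3.73 in wild type. Across the kits the ranges of the clones overlapped on both, but within each kit BR200 was the lower clone; on 1554966_a_at BR200 minus BR100 was -0.44 with Express and -0.51 with One-Cycle. Express was the lower value in every variant on both probe sets. The differences from wild type were 4.82 ± 0.18 (204135_at) and 4.70 ± 0.17 (1554966_a_at) in BR200, and 4.90 ± 0.10 and 5.17 ± 0.21 in BR100 (SD over the 2 kits, n = 2). RefSeq lists 2 promoter windows for FILIP1L, both on the minus strand of chromosome 3 in GRCh38.p14, which are shown because they lie at opposite ends of CpG content. The window at chr3:99876124-99876423 holds 48 CpG dinucleotides and the window at chr3:100114452-100114751 holds 2, in capitals. Which of the windows gave rise to the measured transcript was not tested.
FILIP1L, CpG-rich window: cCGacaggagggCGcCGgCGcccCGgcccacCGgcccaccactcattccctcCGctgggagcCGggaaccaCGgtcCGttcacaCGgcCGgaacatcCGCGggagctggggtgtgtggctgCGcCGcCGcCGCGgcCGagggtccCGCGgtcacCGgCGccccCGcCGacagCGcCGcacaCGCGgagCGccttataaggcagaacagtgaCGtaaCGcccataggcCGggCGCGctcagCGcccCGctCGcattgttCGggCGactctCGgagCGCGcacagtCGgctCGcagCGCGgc
FILIP1L, CpG-poor window: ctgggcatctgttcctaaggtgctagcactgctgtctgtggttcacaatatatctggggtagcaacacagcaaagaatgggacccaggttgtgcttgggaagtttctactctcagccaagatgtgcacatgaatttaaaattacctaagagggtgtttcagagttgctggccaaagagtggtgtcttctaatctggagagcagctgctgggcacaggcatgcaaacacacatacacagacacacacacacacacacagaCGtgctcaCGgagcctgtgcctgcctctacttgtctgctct

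NUDT7, the coenzyme A hydrolase, was the most alike in the 2 clones. Probe set 228855_at read 8.69 and 8.23 in BR200, 8.80 and 8.20 in BR100, and 3.31 and 3.51 in wild type. The Express array was the higher in both clones and the lower in wild type. BR200 exceeded wild type by 5.05 ± 0.47 and BR100 by 5.09 ± 0.57 (SD over the 2 kits, n = 2). The bound against the mark of 4 was 22.0-fold in BR200 and 22.6-fold in BR100.

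ELF5, the epithelial ETS factor, had 2 probe sets that agreed in order and not in size. Probe set 220625_s_at read 8.12 and 8.14 in BR200, 9.19 and 9.23 in BR100, and 3.29 and 4.15 in wild type. Probe set 220624_s_at read 4.40 and 5.03 in BR200, 4.88 and 5.99 in BR100, and 3.24 and 3.18 in wild type. The clones were separate on the first, overlapped on the second, and were above wild type on both. BR200 minus wild type was 4.42 on the first probe set and 1.50 on the second, and BR100 minus wild type was 5.50 and 2.23. Over the 8 genes, the median difference from wild type was 5.17 in BR200 and 5.18 in BR100, against 0.04 in either clone over the 10370 genes tested. With all probe sets of a gene averaged, those at the floor included, the difference was 2.83 in BR200 and 2.43 in BR100 for SRPX2, 2.53 and 2.55 for NUDT7, 3.18 and 3.36 for FILIP1L, and 3.98 and 2.80 for AKAP12.

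**Figure D1:**
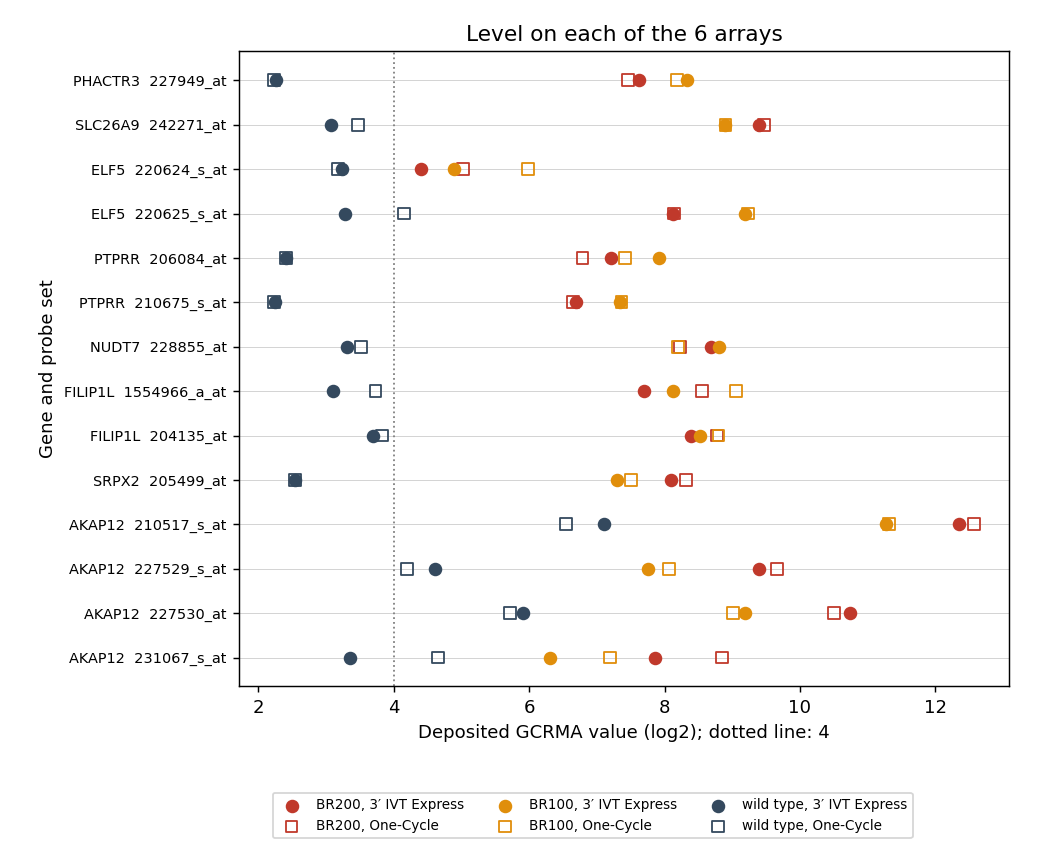
Deposited GCRMA value (log2, horizontal axis) of the 14 probe sets of the 8 genes on each of the 6 arrays; colour gives the variant, filled circles the 3' IVT Express kit and open squares the One-Cycle kit. All resistant values lie right of the wild type values, wild type is left of the dotted line at 4 on both arrays for 9 probe sets, and AKAP12 alone has 3 probe sets with wild type wholly to its right.

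The genes were picked from the end of a continuous range. Among the 189 genes near background in wild type, ranked by the smaller rise of the 2 clones, SLC26A9 stood at 1, PHACTR3 at 3, NUDT7 at 4, SRPX2 at 6, FILIP1L at 7 and PTPRR at 9. The non-members among them were MCM10, a DNA replication factor, with a smaller rise of 5.47 (3.12 without probe sets whose names mark shared probes), the chemokine CXCL6 with 4.88 and MAMDC2 with 4.62. Just past PTPRR, at 4.59, came CD99, a surface glycoprotein, with 4.38 and ORC1, a subunit of the origin recognition complex, with 4.18. A further measure of being switched on, under 4 on both wild type arrays and at 6 or more on all 4 resistant arrays, was met by 23 genes (0.222% of those tested), of which 6 were members. Ranked over all 10370 genes, AKAP12 stood at 18 and ELF5 at 19.

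The difference between the clones was not itself used to choose the genes and was tested. It is made of the rises of both clones over wild type, which were used, so the members are not a random draw for it. BR200 and BR100 differed in 3 of the 8 genes at a limma adjusted p under 0.05, against 10.6% of all genes tested. AKAP12 and SRPX2 were higher in BR200, PHACTR3 was lower, and the remaining 5 did not pass. Over all genes 6.39% passed as higher and 4.23% as lower. AKAP12 was higher in BR200 by 1.16 ± 0.21 (SE; 95% interval 0.60 to 1.72), a 2.23-fold difference, with an adjusted p of 0.045 from limma. For SRPX2 the difference was 0.80 ± 0.09 (0.57 to 1.04), or 1.75-fold, with a limma adjusted p of 0.0198. For PHACTR3, lower in BR200, the difference was -0.71 ± 0.07 (-0.91 to -0.52), BR100 being 1.64-fold above BR200, with a limma adjusted p of 0.0173. Each of the 3 kept its direction within either kit.

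Of the 5 genes that did not pass, 3 had intervals clear of 0 before adjustment. ELF5 differed by -1.08 ± 0.24 (SE), PTPRR by -0.67 ± 0.15 and SLC26A9 by 0.54 ± 0.12, with limma adjusted p of 0.0634, 0.0611 and 0.0624. The spread behind these errors is pooled over the 3 variants, wild type included. For ELF5, BR200 minus BR100 was -1.07 with Express and -1.09 with One-Cycle. Its Express minus One-Cycle difference was -0.02 in BR200, -0.04 in BR100 and -0.86 in wild type. The difference was -0.08 for FILIP1L on 204135_at (95% interval -0.32 to 0.16, limma adjusted p 0.6) and -0.04 for NUDT7 (-0.62 to 0.54, limma adjusted p 0.931). Intervals of that width do not show the clones to be equal. NUDT7 was also the 1 gene whose sign differed between kits, at -0.11 with Express and 0.03 with One-Cycle. Over the 8 genes the median of BR200 minus BR100 was -0.06, beside -0.01 over all genes.

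Taken probe set by probe set, 6 of the 14 passed, against 5.7% of all probe sets: 4 as higher in BR200 (3.96% of all) and 2 as lower (1.74% of all). AKAP12 passed as higher in BR200 on 3 of its 4, by 1.62 on 227529_s_at, 1.53 on 227530_at and 1.61 on 231067_s_at, with limma adjusted p of 0.0386, 0.0127 and 0.0183. On the brightest, 210517_s_at, the difference of 1.16 missed at 0.0649 in that fit. PTPRR passed as lower on 210675_s_at (-0.69 ± 0.07, SE, limma adjusted p 0.0289) and missed on 206084_at (-0.67 ± 0.15, 0.086). Express minus One-Cycle on 206084_at was 0.43 in BR200, 0.51 in BR100 and 0.00 in wild type. In this model the residual spread is how far those 3 kit differences disagree, wild type included. On 1554966_a_at of FILIP1L the difference of -0.47 (95% interval -0.76 to -0.18) did not pass, with a limma adjusted p of 0.0851. The remaining calls by probe set were SRPX2, with a limma adjusted p of 0.034, and PHACTR3, with 0.0311. The fit by gene called 1102 of all genes, and 1311 after quantile normalization. These calls rest on 2 residual degrees of freedom: none of the 8 genes passed when any 1 array was left out, when no filter on low values was used, or when the kit term was dropped, while 6 passed after quantile normalization.

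**Figure D2:**
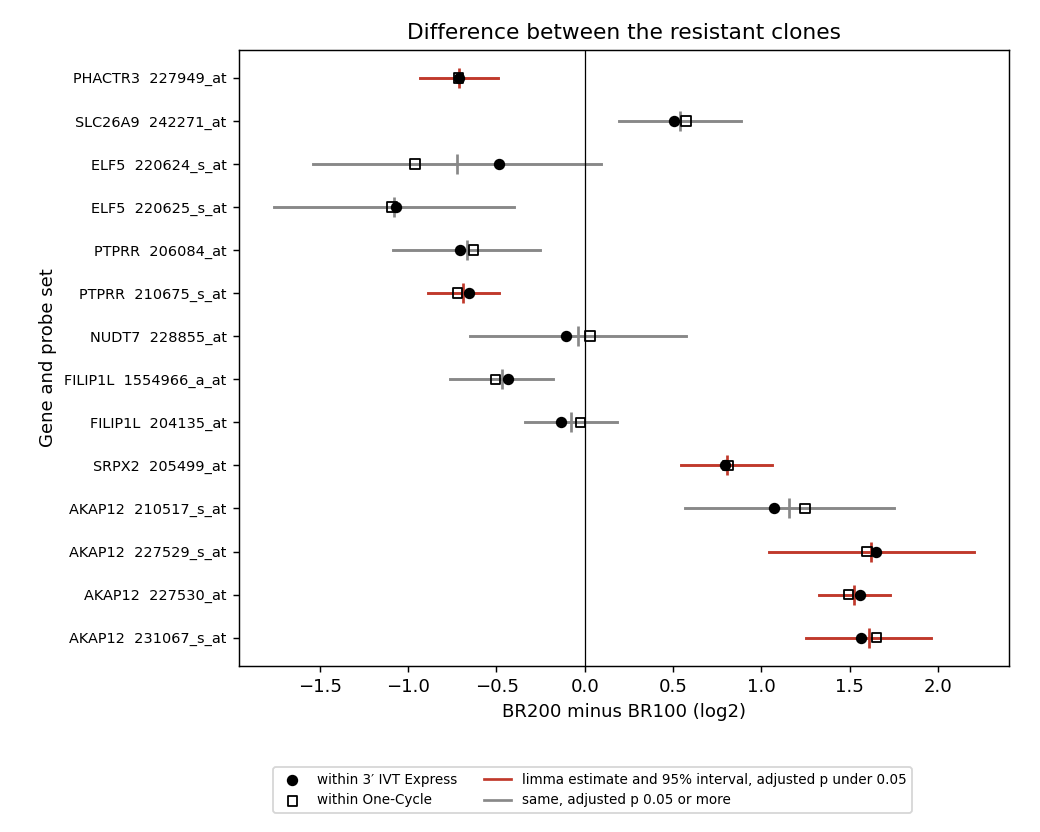
BR200 minus BR100 (log2, horizontal axis) for the 14 probe sets, with the limma estimate and its 95% interval as a tick and a bar (red where the adjusted p is under 0.05) and the values within each kit as points. AKAP12, SRPX2 and SLC26A9 lie right of 0, with AKAP12 between 1.16 and 1.62, whereas PHACTR3, PTPRR and ELF5 lie left of it and NUDT7 and FILIP1L 204135_at are close to 0.

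Labelling also left its mark on some probe sets. None of the 8 genes differed between Express and One-Cycle at a limma adjusted p under 0.05, whereas 34% of all genes did. In 6 of the 8, wild type was near background, where a kit difference may not show. The counts therefore do not show that the genes depended less on the kit. For PTPRR on 206084_at, Express minus One-Cycle was 0.43 in BR200, 0.51 in BR100 and 0.00 in wild type. For NUDT7 it was 0.46, 0.60 and -0.21 in the same variants. Of the 8, 1 (FILIP1L) was past an unadjusted threshold of 0.05 by limma, as were 4985 of the 10370 genes tested. For FILIP1L the limma estimate was -0.26 with an adjusted p of 0.053. Of the 14 probe sets, 2 passed, against 35.2% of all probe sets, and both were lower with Express, as were 16% of all. On 1554966_a_at of FILIP1L, Express minus One-Cycle was -0.86 in BR200, -0.93 in BR100 and -0.63 in wild type, a mean of -0.81 with a limma adjusted p of 0.00772. On 231067_s_at of AKAP12 it was -0.98 in BR200, -0.89 in BR100 and -1.31 in wild type, a mean of -1.06 with a limma adjusted p of 0.0068. The other FILIP1L probe set, 204135_at, was also lower with Express in every variant, at -0.39 in BR200, -0.28 in BR100 and -0.13 in wild type, and missed at a limma adjusted p of 0.0649 in the fit by probe set. On 227530_at of AKAP12 the values were 0.24 in BR200, 0.17 in BR100 and 0.19 in wild type. On 2 further AKAP12 probe sets the kits ran opposite ways by variant, with -0.23 in BR200, -0.05 in BR100 and 0.56 in wild type on 210517_s_at; that contrast was not tested. Either clone lay at least 2.53 from wild type within a kit on every AKAP12 probe set. The largest AKAP12 kit difference was -1.31, in wild type on 231067_s_at. For ELF5 on 220624_s_at, Express minus One-Cycle was -0.63 in BR200, -1.10 in BR100 and 0.06 in wild type. The distance from wild type there was 1.16 (Express) and 1.85 (One-Cycle) in BR200, and 1.64 and 2.81 in BR100.

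**Figure D3:**
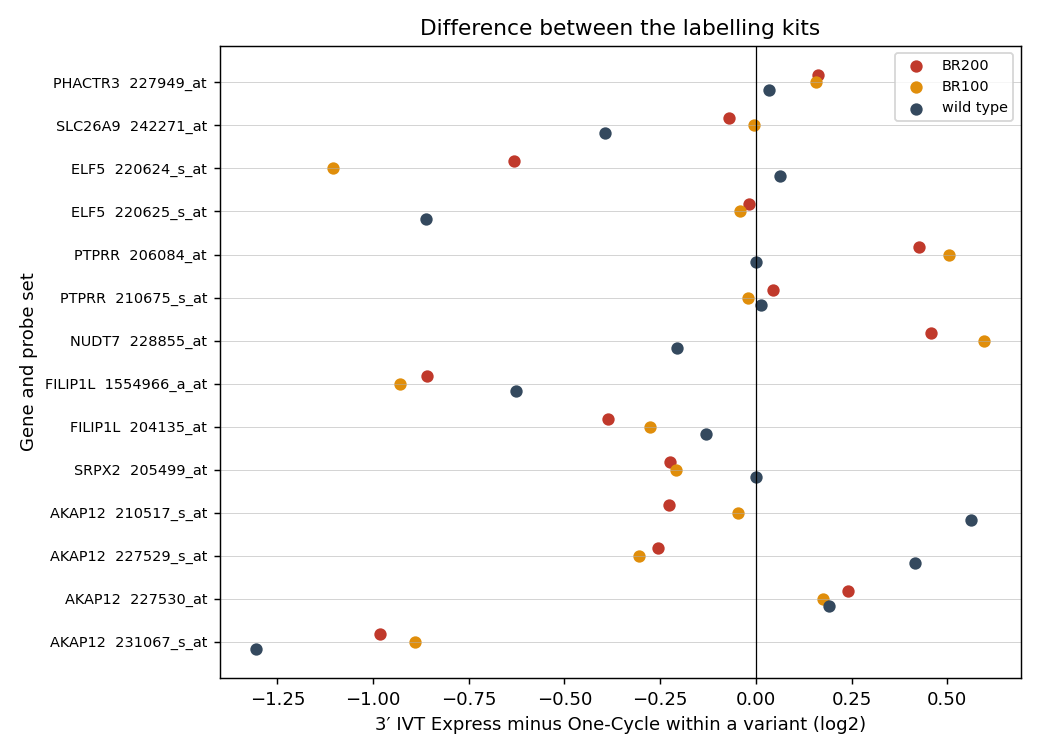
Express minus One-Cycle (log2, horizontal axis) within each variant for the 14 probe sets, 1 point per variant. On FILIP1L 1554966_a_at and AKAP12 231067_s_at all 3 variants lie left of 0, between -0.63 and -1.31, and the 2 ELF5 probe sets have the only other points beyond 0.6 from 0.

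Known partners and relatives of the 8 genes were read from 8 lists holding 73 genes, of which 45 were tested. Against wild type, 9 of the 45 passed as higher and 19 as lower in BR200 by limma, where 35.4% of all genes passed as higher and 31.2% as lower. In BR100, 9 passed as higher and 20 as lower, where 36.7% of all genes passed as higher and 31.8% as lower. The lists' median difference was -0.19 in BR200 and -0.24 in BR100, against 0.04 over all genes in both. The clones share the wild type arrays, so these are not independent counts.

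Of the SRPX2 partners, both tested genes fell in both clones. PLAUR, the urokinase receptor that SRPX2 binds, read 7.99 and 7.82 in BR200, 6.99 and 6.85 in BR100, and 10.90 and 10.94 in wild type. All 4 resistant arrays were below both wild type arrays, and the difference from wild type was -3.02 ± 0.08 in BR200 and -4.00 ± 0.08 in BR100 (SE, limma adjusted p 0.000126 and 6.99e-05). CTSB, a lysosomal protease that also binds SRPX2, fell by 0.90 in BR200 and 1.16 in BR100, and fell by 1.41 in BR200 with its probe sets averaged. PLAU, SRPX and ADAMTS4 were under 4 on every array and were not tested.

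Among SLC26 transporters and CFTR, 3 of 11 listed genes were tested. CFTR, the chloride channel that SLC26A9 interacts with, read 4.75 and 4.12 in BR200, 6.11 and 6.28 in BR100, and 8.67 and 8.94 in wild type. It fell by 4.37 ± 0.24 in BR200 and fell by 2.61 ± 0.24 in BR100 (SE, limma adjusted p 0.000356 and 0.00115), with no overlap between variants. SLC26A2, a sulfate transporter, rose by 1.01 in BR200 and 1.06 in BR100, and it passed in neither clone once the kit term was dropped, as also held for DUSP6, ETS2 and PPP1CC below. With probe sets averaged the rise of SLC26A2 was 0.55 in BR200 and 0.52 in BR100.

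The PTPRR list of MAP kinase phosphatases and their kinases had 5 tested genes, of which 2 fell in BR200 and 3 fell in BR100, while the rest did not pass. DUSP5, a nuclear ERK phosphatase, read 7.97 and 7.60 in BR200, 7.55 and 7.11 in BR100, and 9.33 and 8.91 in wild type, and it fell by 1.33 in BR200 and fell by 1.78 in BR100. DUSP6, a cytoplasmic one, fell by 0.61 and 0.82 in the same clones. MAPK3, encoding the kinase ERK1, read 6.74 and 6.96 in BR200, 6.37 and 6.74 in BR100, and 6.74 with both kits in wild type. It passed in neither clone and was chosen for mention after its values were seen. The identical value 6.7376 stood on the Express array of BR200, the One-Cycle array of BR100 and both wild type arrays. Whether the processing set that value was not tested, so it may not be a measured level.

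Of 13 tested genes on the AKAP12 list, which holds anchors and subunits of protein kinase A and the protein kinase C gene PRKCA, 1 rose and 5 fell in BR200, and 2 rose and 4 fell in BR100. PRKACB, a catalytic subunit, read 8.06 and 7.95 in BR200, 8.35 and 8.54 in BR100, and 5.27 and 4.66 in wild type. It rose by 3.04 ± 0.20 in BR200 and 3.48 ± 0.20 in BR100 (SE, limma adjusted p 0.000541 and 0.000358). The anchor AKAP7 fell by 2.67 in BR200 and 1.85 in BR100, and AKAP11 fell by 1.41 in BR200 and 1.21 in BR100. With probe sets averaged, PRKACB still passed by limma with 1.33 in BR200 and 1.49 in BR100, and AKAP7 with -0.89 and -0.61.

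Of 5 tested genes of the PHACTR family and of phosphatase 1, 1 rose and 1 fell in BR200, and 1 rose in BR100. PPP1CC, a catalytic subunit, rose by 0.35 in BR200 and 0.54 in BR100, and its call in BR200 was also lost with no filter and with any of 3 arrays left out. PHACTR4, a relative of PHACTR3 chosen for mention after its values were seen, fell by 0.58 in BR200 (limma adjusted p 0.0116) and differed from wild type by -0.33 in BR100 (limma adjusted p 0.0601). The BR200 call of PHACTR4 was lost with no filter or without the One-Cycle array of BR200 or of wild type, and it passed in BR100 under 5 alternatives. FILIP1 was at the lowest value on nearly all arrays, and the filamins had no probe set naming them alone, so none of that list was tested. Of 9 tested genes of coenzyme A synthesis and hydrolysis, 4 rose and 4 fell in BR200, and 3 rose and 5 fell in BR100. The pantothenate kinases PANK1 and PANK4 rose by 0.90 and 0.75 in BR200 and by 1.31 and 0.79 in BR100, whereas PANK3 fell by 0.39 in BR200 and 0.32 in BR100. After averaging over all PANK3 probe sets the value was 0.14 in BR200 (limma adjusted p 0.105) and 0.28 in BR100 (0.0141). The PANK3 call was lost in BR200 without its One-Cycle array, and in BR100 without the kit term or without either BR100 array. Of 8 tested ETS factors, 1 rose and 4 fell in BR200, and 2 rose and 5 fell in BR100. ELF3, an intestinal epithelial member, fell by 0.71 in BR200 and 1.72 in BR100, ELF1 fell by 0.98 and 0.97, and ETS2 rose by 0.32 and 0.36. The ETS2 call was also lost in BR200 with probe sets averaged or with any of 3 arrays left out, and in BR100 without either BR100 array.

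The 8 genes lie on 8 different chromosomes, so their place in the genome could be set beside that of the 5 tested genes on either side in the RefSeq order. Of these 80 neighbours, 33 passed as higher and 26 as lower in BR200, and 35 and 27 in BR100, by limma. Over all genes 35.4% passed as higher and 31.2% as lower in BR200, and 36.7% and 31.8% in BR100, and the counts for the neighbours lie near these shares. The median of the 10 neighbours was between -0.39 and 0.45 in BR200 and between -0.31 and 0.62 in BR100 for the 7 genes other than SRPX2. Next to PTPRR, MYRFL fell by 6.70 in BR200 and 6.69 in BR100 while KCNMB4, a potassium channel subunit, rose by 1.45 and 1.31. The KCNMB4 call in BR100 was lost without the kit term, and its rise in BR200 was 0.78 with probe sets averaged. Around AKAP12, PPP1R14C, an inhibitor of protein phosphatase 1, rose by 3.91 in BR200 and 3.10 in BR100, and PLEKHG1, which lies between them, fell by 1.57 and 1.77. PPP1R14C was near background in wild type, at 2.46 and 2.37. WWOX, beyond NUDT7, rose by 2.52 in BR200 and 2.58 in BR100.

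CTSE, an aspartic protease beside SLC26A9, rose by 1.20 in BR200 and 1.18 in BR100, and ELK4 on the far side fell by 0.77 and 0.70. CTSE was near background in wild type, at 3.66 and 3.57, and read 4.89 and 4.74 in BR200 and 4.84 and 4.76 in BR100. CAT, catalase, adjoins ELF5 and rose by 1.06 and 1.38, while the adhesion receptor CD44 fell by 1.52 and 1.31. CAT passed in neither clone with no filter. With probe sets averaged, ELK4 read -0.22 in BR200 and -0.21 in BR100 (-1.28 in BR100 without probe sets whose names mark shared probes), and CD44 read -0.58 and -0.45. CPOX, an enzyme of haem synthesis near FILIP1L, rose by 1.40 and 1.64, and DCBLD2 fell by 0.61 and 0.52. The DCBLD2 call was lost in both clones with probe sets averaged, where it read -0.21 in BR200 and -0.11 in BR100, and without probe sets whose names mark shared probes, where it read -0.38 and -0.11. CMSS1, which overlaps FILIP1L in the annotation, fell by 0.56 in BR200 and 0.36 in BR100, and passed in neither clone with no filter. Its BR100 call was also lost without the kit term or without any 1 of the BR100 and wild type arrays, and its BR200 call without the One-Cycle array of wild type. Near PHACTR3, the cadherin CDH26 read 4.81 and 4.98 in BR200, 2.84 with both kits in BR100, and 2.23 with both kits in wild type. It rose by 2.66 in BR200, and on the BR100 and wild type arrays it was under the mark of 4. SYCP2, of the synaptonemal complex, fell by 0.71 and 0.60, to under 4 on every resistant array. It passed in neither clone with no filter, and its BR100 call was also lost without the kit term, at a limma adjusted p of 0.0524, and without the Express array of BR100 or of wild type; the BR200 call was lost without either BR200 array.

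Around SRPX2 most neighbours rose. Of the 10, 6 passed as higher in BR200 and 7 in BR100, with medians of 1.88 and 1.84. SYTL4, a regulator of exocytosis that overlaps SRPX2 in the annotation, read 7.67 and 7.24 in BR200, 6.11 and 5.63 in BR100, and 3.20 and 2.49 in wild type. It rose by 4.61 ± 0.10 in BR200 and 3.02 ± 0.10 in BR100 (SE, limma adjusted p 8.06e-05 and 0.000121), and its clones stood in the same order as those of SRPX2. With probe sets averaged the rise of SYTL4 was 1.81 in BR200 and 1.03 in BR100. ZNF711, on the other side, fell by 1.53 in BR200 and 1.73 in BR100. The cause of the rise of these neighbours was not tested.

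**Figure D4:**
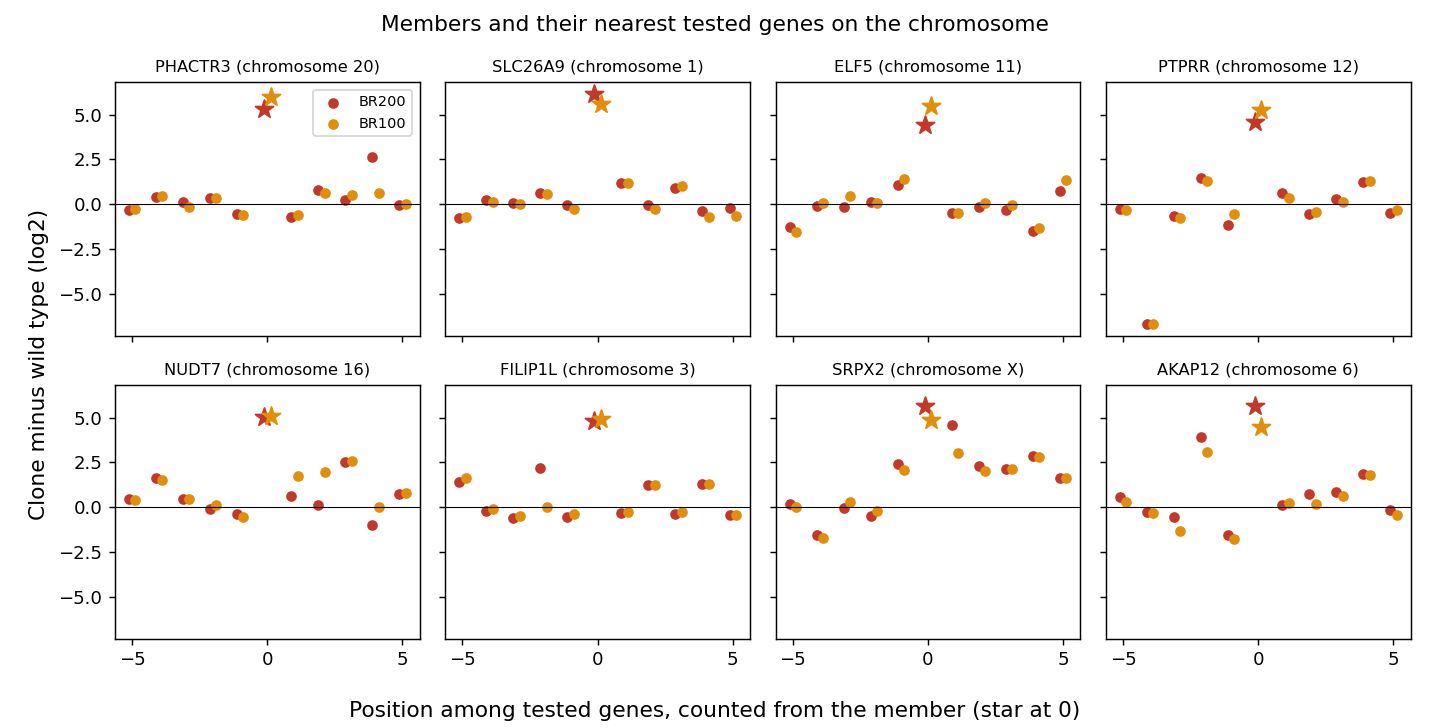
Clone minus wild type (log2, vertical axis) for each member (stars at 0) and the 5 tested genes before and after it on its chromosome (points), in BR200 and BR100. The neighbours of 7 members scatter around 0, with MYRFL near PTPRR at -6.70 in BR200, whereas from 1 gene before SRPX2 to 5 after it all points lie between 1.63 and 5.66.

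RefSeq gave 12 promoter windows for 7 of the 8 genes, credited to its GRCh38.p14 annotation, and PHACTR3 had none in the table. The windows held 1 to 48 CpG dinucleotides with a median of 4.5, beside a median of 14 and quartiles of 4 and 28 over 35116 windows of the table. SRPX2 and ELF5 had 2 each, the 3 PTPRR windows had 2, 1 and 3, and SLC26A9 had 6. NUDT7 with 27, the 3 AKAP12 windows with 15, 14 and 32, and the CpG-rich FILIP1L window with 48 made up the upper end. Several windows of a gene can overlap and were not counted as independent. The AP-1 letters TGAGTCA, which read as TGACTCA when the opposite strand is followed, occurred in 4.95% of all windows and in SRPX2 alone among the members. TATAAA occurred in 11.5% of all windows, and in SLC26A9 alone among the members. The E box CACGTG, which reads the same on both strands, occurred in 7.26% of all windows and in all 3 of AKAP12. The CRE letters TGACGTCA were found on either strand in 1.85% of all windows and the C/EBP-ATF letters TGATGCAA in 0.866%, and the 12 member windows held neither. These are matches of letters in 300-base windows and not measured binding.

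**Figure D5:**
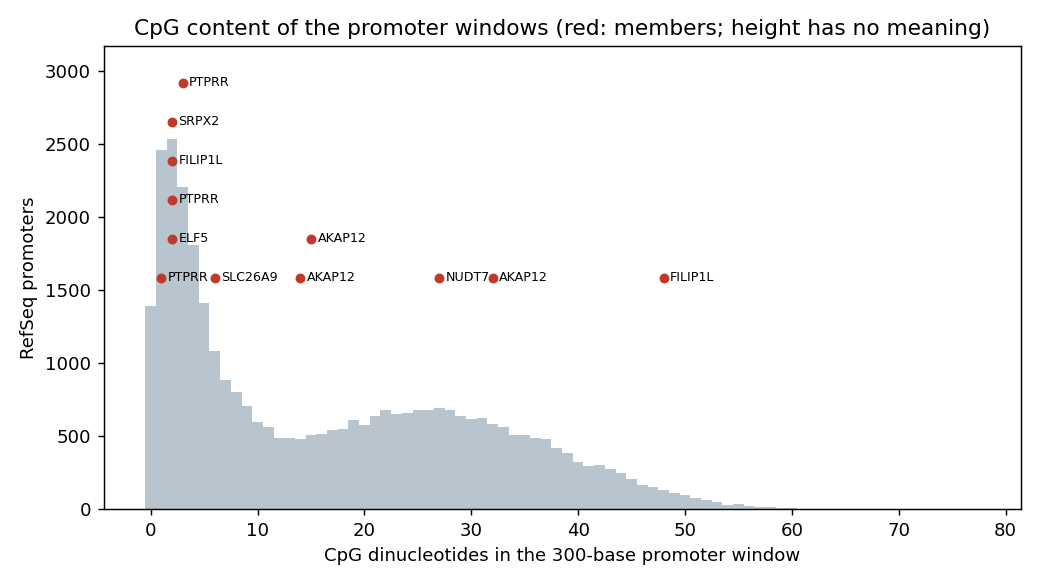
Number of RefSeq promoter windows (vertical axis) by CpG dinucleotides per 300-base window (horizontal axis), with the 12 windows of the members as red points whose height has no meaning. ELF5, SRPX2, the 3 PTPRR windows and 1 of FILIP1L lie at 3 or below, and the other FILIP1L window lies at 48.

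The genes whose profile over the 6 arrays was most like each member, by the root mean square distance between values centred on each gene's own mean, were the following. PTPRR was nearest to CCNE2, cyclin E2, at 0.215, and to PIR, pirin, at 0.249. FILIP1L lay closest of all, at 0.132 from GINS2 and 0.161 from MCM5, which are parts of the replicative helicase. The rise of GINS2 was 4.76 in BR200 and 4.83 in BR100, but 1.86 and 1.96 with its probe sets averaged. NUDT7 was 0.160 from CXCL6 and 0.236 from MAMDC2. SRPX2 was 0.324 from POLE2, a DNA polymerase epsilon subunit, and 0.372 from CD99. PHACTR3 was 0.296 from MCM10 and 0.351 from CCNE2, and SLC26A9 was 0.332 from MCM10 and 0.369 from POLE2. AKAP12 was 0.402 from FN1, fibronectin, and 0.478 from MAMDC2, and ELF5 was 0.469 from GINS2 and 0.481 from ORC1. The rise of FN1 was 4.86 in BR200 and 4.13 in BR100, but 2.94 and 2.39 with its probe sets averaged. All of these profiles share the same 6 arrays and a step of similar size between the resistant and wild type arrays, which sets most of the distance.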

How the data were processed

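Expression was measured in 6 samples of HT-29 RNA, 2 for each of BR200, BR100 and wild type, on Affymetrix arrays of 54675 probe sets. The values are log2 expression per probe set as deposited by the authors, made with GCRMA per the submitters' processing notes; its version is not given in the sources used here. GCRMA corrects background, normalizes and summarizes probes, so differences from a floor value understate or overstate low signals. Depth has no meaning here, and signal over background and the number of arrays limit precision.

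By the platform annotation, 41097 probe sets named a single gene, 1801 named more and 11777 had no gene. Of the genes tested, 10358 matched RefSeq (GRCh38.p14) by identifier, all with the same symbol. Each of 19775 genes was taken at its brightest probe set by mean over the arrays, counting those naming it alone. Genes were kept with at least 2 of 6 arrays at 4, which left 10370 genes and 19055 probe sets; 9405 genes were set aside.

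All tests came from limma 3.58.1 in R 4.3.3, two-sided, in a model over 6 arrays with terms for variant and labelling kit, adjusted by Benjamini-Hochberg over all genes or probe sets kept and called at an adjusted p under 0.05. Residual degrees of freedom were 2, and the eBayes prior added 2.33 by gene and 2.11 by probe set. The labels give each variant 1 array per kit, so arrays of the same kit were paired; their kit differences correlated across genes at 0.845 (BR200 and BR100), 0.776 (BR200 and wild type) and 0.762 (BR100 and wild type). On simulated data for BR200 minus BR100 (5 simulations, 201 changed of 10370 genes), the fit recovered 36.7% of genes changed by log2 0.58, 66.9% by 1 and 94% by 2, with a mean of 6.8 false calls. The simulated noise was normal, with spreads shuffled among genes and no values held at a floor. These rates need not hold for members whose wild type arrays lay at the floor.

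The members, lists, alternatives and rules were chosen with earlier results of these data known. Named were all members; up to 2 called genes per list and direction; up to 1 neighbour of each member per direction, called in both clones, with the largest mean difference from wild type; for each member the 2 most alike genes; and the 5 non-members near background in wild type that rose most. Alternatives were other probe set rules, filters, scalings, eBayes with trend, no kit term, each kit alone and each array left out. Neighbouring genes that overlap on the chromosome were not separated beyond the array's own probe sets.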

Additional observations from a re-analysis of the deposited data

Results flagged for a closer look

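The clones differed in 3 of the 8 genes by the limma test of BR200 minus BR100, against 10.6% of all genes tested. That difference is made of the rises used to choose the genes, so the members are not a random draw for it. AKAP12 was higher in BR200 by 1.1587 on the log2 scale and SRPX2 by 0.8032, while PHACTR3 differed by -0.7132, that is, it was lower in BR200. Over the alternatives other than leaving out an array, the limma adjusted p ran between 0.00369 and 0.291 for AKAP12, between 0.00682 and 0.138 for SRPX2 and between 0.00644 and 0.102 for PHACTR3, with 6 of 8 alternatives past the threshold for each. With 1 array left out it ran between 0.0629 and 0.219 for AKAP12, 0.0629 and 0.151 for SRPX2 and 0.0665 and 0.147 for PHACTR3, so that none of the 6 fits called any of them. The direction was the same in every one of these fits. The cause of these clone differences was not tested.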

How the results depend on the processing

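The test of the clones changed most with the processing. Over all genes it called 1378 with arrays centred on the median and 1311 with quantile normalization. It called 1579 with a filter at 6 and 956 with probe sets averaged. BR200 minus BR100 called 1102 genes, of which 3 were members; it called 1745 genes with an eBayes trend, 15 with no filter, 112 with no replicate block (the kit term left out), and 0 to 61 with 1 array left out. Members called were 6 with arrays centred on the median, with quantile normalization or with a filter at 6, 5 with probe sets averaged, and 0 with no filter, with no replicate block and with any array left out. By probe set, 1087 calls became 2261 with the trend, 1909 with a filter at 6, 57 with no replicate block, 0 with no filter and 0 in every fit without 1 array; the 6 member probe sets became 0 with no filter, no replicate block or any array left out. Beside the counts of 0 with no filter, limma gave unadjusted p under 0.05 for 5 of 8 member genes and 9 of 14 member probe sets. Over all, 2956 of 19775 genes and 4993 of 41097 probe sets reached it there. With no replicate block it was reached by 6 member genes and 9 member probe sets. Over all, 1292 of 10370 genes and 1970 of 19055 probe sets reached it in that setting. Leaving out an array leaves 1 residual degree of freedom, and the lone array of a variant is then assumed to vary like the others. SRPX2 kept its direction but was 0.40 with probe sets averaged.

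Kit calls were 3530 genes and 6713 probe sets; they were 468 and 649 with no filter, 59 and 603 with no replicate block (the variant term left out), and 430 to 1797 and 1901 to 3983 with an array left out. Member genes called for the kit were 0 in the main setting, 1 with arrays centred or with a filter at 6, 2 with probe sets averaged and 0 to 2 with an array left out; the 2 member probe sets became 0 with no filter or no replicate block and 1 to 4 with an array left out. Over all genes the kit calls were 3754 with arrays centred, 3932 with a filter at 6 and 3648 with probe sets averaged. The members' median rise of 5.17 in BR200 was 3.58 with probe sets averaged, which brings in the probe sets at the floor. It was 5.08 to 5.32 with an array left out. That of 5.18 in BR100 was 3.61 averaged, 5.50 within Express and 5.01 to 5.48 with an array left out.

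With no replicate block, the related genes called higher went to 5 in BR200 and 4 in BR100, and those called lower to 11 in BR100; with an array left out the counts were 6 to 9 higher and 13 to 19 lower in BR200, and 7 to 10 higher and 13 to 18 lower in BR100. Neighbours called lower were 16 in BR200 and 13 in BR100 with no replicate block, and 13 and 12 with no filter; 22 were called higher in BR100 with no replicate block. With an array left out they were 30 to 32 higher and 15 to 23 lower in BR200, and 28 to 33 higher and 15 to 21 lower in BR100. PANK3 turned to 0.1408 in BR200 and 0.2823 in BR100 with probe sets averaged. The cause was not tested where a setting's own construction does not show it.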

Other observations

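SRPX2 lay in an unbroken run of 9 tested genes on the X chromosome that all passed as higher in both clones: TSPAN6, SRPX2, SYTL4, CSTF2, NOX1, XKRX, TRMT2B, CENPI and TIMM8A. The run was looked for after the values of the neighbours had been seen. NOX1, a superoxide-producing oxidase of colon epithelium, read 8.03 and 7.78 in BR200, 7.90 and 7.91 in BR100, and 5.90 and 5.63 in wild type (Express, then One-Cycle). CENPI, a centromere protein, read 8.09 and 9.04 in BR200, 8.39 and 9.15 in BR100, and 5.71 and 6.93 in wild type. TIMM8A, a chaperone of mitochondrial import, read 8.74 and 8.25 in BR200, 8.66 and 8.42 in BR100, and 6.34 with both kits in wild type. Its wild type values were identical at 6.3419, and whether the processing set them was not tested. All 4 resistant arrays of these 3 genes were above both wild type arrays.

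TSPAN6 rose by 2.43 in BR200 and 2.05 in BR100, CSTF2, a factor of mRNA cleavage, by 2.27 and 2.03, and XKRX by 2.84 and 2.78. TRMT2B, a mitochondrial tRNA methyltransferase, rose by 1.63 and 1.65, with kits far apart: 4.78 and 8.04 in BR200, 5.09 and 7.78 in BR100, and 3.53 and 6.04 in wild type. The 8 genes around SRPX2 all passed in both clones under every alternative except no filter and no replicate block, where TRMT2B did not, and under 1 alternative a gene of the 8 had no probe set left. With probe sets averaged the rises in BR200 and BR100 were 1.81 and 1.03 for SYTL4, 1.28 and 1.47 for CENPI, and 1.12 and 1.09 for TIMM8A. Of 2087 unbroken runs in the genome, 3 were 9 genes or longer, the longest of 12 genes. The other 2 long runs, on chromosomes 1 and 14, had smaller rises, with medians of 0.96 and 1.26 in BR200 and 0.87 and 1.26 in BR100, against 2.27 and 2.20 for the run on X. The X chromosome as a whole was not higher: of its 308 tested genes, 35.4% passed as higher in BR200 and 37.7% in BR100, with medians of -0.03 and 0.00. The runs of the other 7 members held 1 or 2 genes. DNA copy number and methylation of this stretch were not measured, and their part in the run was not tested.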
